A study of Mus musculus with 6 samples.

Results

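The genes of the calcium/calmodulin-dependent protein kinases (CaM kinases) Camk2a, Camk2b, Camk2d, Camk2g, Camk4, Camkk1, Camkk2 and Camk1d were chosen by name and not by a rule on their values, though earlier results of these data were known. All 8 were found by symbol among 37273 genes of the GENCODE annotation of mm9 (NCBIM37), of which 22367 are protein-coding. Their reads were counted in every library over the gene body, from the first start site to the last end, and over the promoter, the 5 kb upstream of the first start site.

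Chromatin came from whole hippocampus of C57/BL6 mice, 6 months old by the labels. One group of mice was fear-conditioned to a context with a foot shock in 2 sessions (FC), and the control group saw the context only (CON). By the study's account, both groups were put back in the context the day after the last session as a memory test. Hippocampi were taken about 1 hour after that test. Each group gave 1 library of chromatin precipitated with a Millipore antibody to acetylated lysine 5 of histone H4 (H4K5ac-ChIP), 1 mock library precipitated with IgG (IgG-IP) and 1 library of genomic DNA that was not precipitated (input). The study's methods describe several hippocampal samples per group, crosslinked one by one, while the data hold 1 library for each group and antibody. There is thus no spread between animals, no test between groups was made, and every comparison below is between libraries. Whole tissue was used, so a mark carried by fewer cells of a type and less of the mark in each cell cannot be told apart.

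CaM kinases are serine/threonine kinases that are held inactive by their own regulatory segment until calcium-loaded calmodulin binds it. CaMKII, built from the products of the Camk2 genes, is a large ring-shaped holoenzyme that phosphorylates itself and can remain active after calcium has dropped, and it is best known in the hippocampus for its part in long-term potentiation and spatial memory. CaMKI and CaMKIV work instead in a cascade, in which a CaM kinase kinase phosphorylates them, and CaMKIV acts largely in the nucleus, where CREB is among its substrates. H4K5ac is an acetyl mark on histone H4 that is found at promoters and along transcribed genes.

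The libraries held between 14549689 reads (IgG-IP in FC) and 45673239 reads (input in FC), and repeats of a position and strand made up 11.5% to 17.8% of them. Densities are given as RPKM, the reads per kb of sequence scaled to the size of the library, with an exact Poisson 95% interval. Ratios of densities are given on the log2 scale with an exact (Clopper-Pearson) binomial 95% interval of the reads behind them. The intervals cover counting error only and treat every read as independent. Reads copied by PCR are not independent molecules, so the intervals can be too narrow even for counting error. All 8 genes passed the minimum of 20 reads in the libraries compared, over the body and the promoter alike.

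The α subunit gene Camk2a, the main CaMKII gene of forebrain excitatory neurons, spans 62535 bp of chromosome 18 (61085272 to 61147806, + strand). Over its body the density of H4K5ac-ChIP was 0.872 RPKM in FC (interval 0.832 to 0.914) and 0.805 RPKM in CON (0.768 to 0.843). The same body had 0.351 and 0.394 RPKM of IgG-IP and 0.696 and 0.472 RPKM of input in FC and CON. Both H4K5ac-ChIP libraries thus lay above all of the mock and input libraries here.

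Camk2b, the β subunit gene, whose product tethers the holoenzyme to actin, spans 96719 bp of chromosome 11 (5869647 to 5966365, − strand). Its body had 0.918 RPKM of H4K5ac-ChIP in FC and 0.860 RPKM in CON, against 0.365 and 0.340 RPKM of IgG-IP and 0.620 and 0.414 RPKM of input. Camk2g, the γ subunit gene, spans 59214 bp of chromosome 14 (21554097 to 21613310, − strand). It had 0.982 and 0.969 RPKM of H4K5ac-ChIP in FC and CON, 0.376 and 0.391 RPKM of IgG-IP and 0.634 and 0.448 RPKM of input. As at Camk2a, no mock or input library reached either H4K5ac-ChIP library at these subunits.

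Camk2d, the δ subunit gene, known above all from heart muscle, differed from the other CaMKII genes. It spans 248753 bp of chromosome 3 (126299220 to 126547972, + strand). Its body had 0.472 RPKM of H4K5ac-ChIP in FC and 0.518 RPKM in CON, 0.411 and 0.420 RPKM of IgG-IP, and 0.408 and 0.445 RPKM of input. All 6 libraries lay close together at this gene.

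The same held for Camk4, the gene of the nuclear kinase CaMKIV, which spans 256727 bp of chromosome 18 (33098695 to 33355421, + strand). Its body had 0.463 and 0.505 RPKM of H4K5ac-ChIP in FC and CON, 0.379 and 0.391 RPKM of IgG-IP and 0.343 and 0.374 RPKM of input. Camk1d, the gene of CaMKIδ, a kinase of the same cascade, is the longest of the 8 with 421059 bp of chromosome 2 (5214503 to 5635561, − strand). It had 0.729 and 0.757 RPKM of H4K5ac-ChIP, 0.404 and 0.429 RPKM of IgG-IP and 0.532 and 0.431 RPKM of input, so that both H4K5ac-ChIP libraries were above the mock and input libraries.

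The upstream kinases CaMKKα and CaMKKβ are encoded by Camkk1 and Camkk2. Camkk1, the shortest of the genes, spans 23066 bp of chromosome 11 (72832510 to 72855575, + strand) and had 0.982 and 0.892 RPKM of H4K5ac-ChIP in FC and CON, 0.286 and 0.405 RPKM of IgG-IP and 0.676 and 0.373 RPKM of input. Camkk2 spans 46179 bp of chromosome 5 (123183213 to 123229391, − strand) and had 0.778 and 0.732 RPKM of H4K5ac-ChIP, 0.308 and 0.347 RPKM of IgG-IP and 0.593 and 0.408 RPKM of input. Both kinase kinases were thus marked above mock and input in each group.

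By H4K5ac-ChIP density of the body, the order in FC ran from Camkk1 through Camk2g, Camk2b, Camk2a, Camkk2, Camk1d and Camk2d to Camk4. Neighbours in this order did not differ beyond counting error for Camkk1 and Camk2g (ratio 1.00, 0.916 to 1.09), for Camk2b and Camk2a (1.05, 0.990 to 1.12) and for Camk2d and Camk4 (1.02, 0.973 to 1.07). The widest step was between Camk1d and Camk2d, at 1.55-fold (1.49 to 1.61). In CON the order was Camk2g, Camkk1, Camk2b, Camk2a, Camk1d, Camkk2, Camk2d and Camk4, and its widest step, from Camkk2 to Camk2d, was 1.41-fold (1.32 to 1.504). In CON the intervals left Camk2g and Camkk1, Camkk1 and Camk2b, Camk1d and Camkk2, and Camk2d and Camk4 unordered. Camk2d and Camk4 were the last of the 8 in each group. Their bodies are also the poorest in G and C, at 40.4% and 40.6%, while Camk1d had 44.5% and the other 5 bodies had 48.7% to 52.5%.

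**Figure D1:**
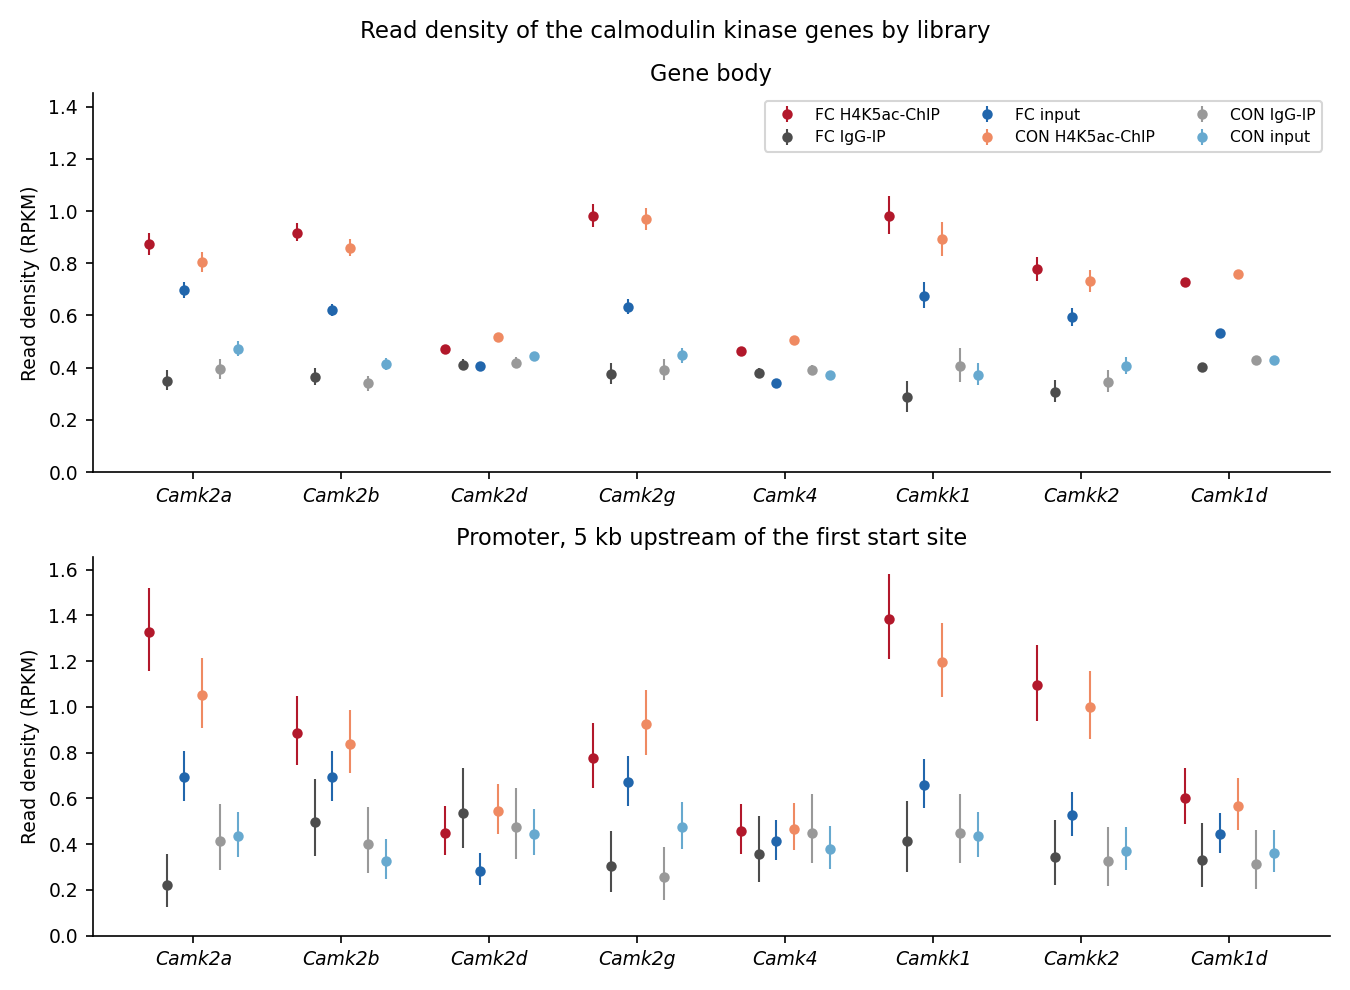
Read density (RPKM, linear axis) of the 8 genes over the gene body (top) and the 5 kb promoter (bottom), with 1 point per library and exact Poisson 95% intervals as bars. Over the bodies of Camk2d and Camk4 the 6 libraries lie between 0.343 and 0.518 RPKM, and over all 8 bodies both H4K5ac-ChIP libraries lie above the mock and input libraries.

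Against the mock library, H4K5ac-ChIP was denser over all 8 gene bodies in each group, with every interval above 0, as were 65.7% of protein-coding bodies in FC and 63.5% in CON. With a mapping score of at least 50, the interval of Camk2d in FC included 0 (0.080, −0.016 to 0.18). The log2 ratio over IgG-IP reached 1, a 2-fold difference, at 5 of 8 bodies in FC, as it did at 33.5% of 19393 protein-coding bodies. It reached 2-fold at 5 of 8 in CON, as at 25.1% of 19433 bodies. The same genes passed in each group, Camk2a, Camk2b, Camk2g, Camkk1 and Camkk2. In CON, Camk2a (0.99) and Camkk2 (0.96) were under 2-fold with 1 read per position and strand, which left 3 of 8 beside 21.8% of all bodies counted in this way, and Camk2a (0.91) was under it with a mapping score of at least 50. The median of the 8 was 1.32 in FC and 1.05 in CON, beside 0.71 and 0.61 for all bodies tested.

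In FC the ratio of the body over IgG-IP was highest at Camkk1, with a log2 value of 1.78 (1.47 to 2.10), followed by Camk2g (1.38, 1.21 to 1.56), Camkk2 (1.34, 1.12 to 1.56), Camk2b (1.33, 1.19 to 1.47) and Camk2a (1.31, 1.14 to 1.49). Camk1d had 0.85 (0.79 to 0.92), Camk4 0.29 (0.20 to 0.38) and Camk2d 0.20 (0.11 to 0.29). Over IgG-IP the CaMKII subunit genes were therefore not alike, since Camk2d lay below the other subunit genes with no overlap of the intervals. In CON the log2 ratio was 1.34 at Camk2b (1.21 to 1.47), 1.31 at Camk2g (1.15 to 1.47), 1.14 at Camkk1 (0.89 to 1.40), 1.08 at Camkk2 (0.88 to 1.28) and 1.03 at Camk2a (0.88 to 1.19). Camk1d had 0.82 (0.76 to 0.88), Camk4 0.37 (0.29 to 0.45) and Camk2d 0.30 (0.22 to 0.39). Camkk1 was the member whose body ratio over IgG-IP differed most between groups, and its IgG-IP reads were few, 96 in FC and 154 in CON.

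Base composition moved with these ratios. Over all protein-coding bodies, Spearman's rho between GC content and enrichment over the mock library was 0.602 for FC and 0.506 for CON, and over the 8 members it was 0.786 in each group. These points share the same pair of libraries and are not independent replicates. Set against the median of bodies of like GC content (within 1 percentage point), the log2 ratio in FC was higher by 0.56 at Camkk1, 0.46 at Camk2g, 0.28 at Camkk2, 0.22 at Camk1d, 0.20 at Camk2a, 0.13 at Camk2b and 0.02 at Camk4, and it was −0.05 at Camk2d. In CON the corresponding differences were 0.54 at Camk2g, 0.34 at Camk2b, 0.26 at Camk1d, 0.25 at Camkk2, 0.15 at Camk2a, 0.13 at Camkk1, 0.06 at Camk4 and 0.02 at Camk2d. Camk2d and Camk4 were thus close to the median of bodies with their base composition, and Camk2g stood above 81.4% of such bodies in FC and 88.3% in CON. For H4K5ac-ChIP over input, the rho with GC content over all bodies was 0.072 in FC and 0.435 in CON, and over the members 0.429 and 0.762. For IgG-IP over input it was −0.817 in FC and −0.343 in CON over all bodies. The part that base composition has in the ratios was not tested.

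Against input, the 5 members that reached 2-fold over IgG-IP had smaller ratios in FC, while Camk4 had larger ones in each group (0.43 in FC and in CON), as did Camkk1 in CON. H4K5ac-ChIP over input had log2 values of 0.21 (Camk2d) to 0.63 (Camk2g) over the 8 bodies in FC, so that 0 of 8 reached 2-fold, beside 4.09% of 20538 bodies. In CON they ran from 0.22 (Camk2d) to 1.26 (Camkk1), and 3 of 8, Camkk1, Camk2g (1.11) and Camk2b (1.06), reached 2-fold, beside 14.5% of bodies. The mock library itself was depleted against input at GC-rich members in FC, with log2 ratios of IgG-IP over input of −1.24 at Camkk1 and −0.99 at Camk2a, beside 0.01 at Camk2d and 0.14 at Camk4. In CON the same ratio was between −0.28 (Camk2b) and 0.12 (Camkk1). Over input in FC the intervals of Camk2d (0.15 to 0.27) and Camk2a (0.33, 0.23 to 0.42) overlapped, and Camk4 lay above Camk2a and Camkk2 (0.39). In CON Camk2d (0.16 to 0.28) stayed below Camk2a (0.77, 0.66 to 0.88) with no overlap. Camk2g (0.54 to 0.73), Camk2b (0.49 to 0.64) and Camkk1 (0.39 to 0.69) stayed above Camk2d over input in FC with no overlap. Camkk2 (0.2736 to 0.51) did so narrowly, against an upper end of 0.2732. Of the 5 strongest members, only Camk2g stayed clear of Camk4 (0.37 to 0.50) there. The size of the enrichment at these 5 members, and in FC part of their separation from Camk2d and Camk4, therefore depended on the control library. With all reads counted the H4K5ac-ChIP libraries were denser than either control over all 8 bodies.

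Over the 5 kb promoters the members spread more widely. The promoter of Camk2a held 210 reads of H4K5ac-ChIP in the FC library and 189 in the CON library, 16 and 34 of IgG-IP, and 158 and 77 of input. Its H4K5ac-ChIP density was 1.33 RPKM in FC (1.16 to 1.52) and 1.05 RPKM in CON (0.907 to 1.21). Over IgG-IP its log2 ratio reached 2.60 in FC (1.86 to 3.43), a 6.04-fold difference that lay above 99.5% of 21337 promoters, and 1.35 in CON (0.82 to 1.92), a 2.55-fold difference above 86.2% of 21379 promoters. The gap between these ratios came with both libraries, since the log2 ratio of FC over CON was −0.91 in IgG-IP and 0.34 in H4K5ac-ChIP. The 16 IgG-IP reads in FC put this promoter at percentile 7.41 of all promoters in IgG-IP density. In the nearest 2 kb alone the ratio in CON was 0.52 (−0.30 to 1.40), under 2-fold. Against input the log2 ratio of this promoter was 0.94 in FC (0.64 to 1.25) and 1.28 in CON (0.89 to 1.68), in the opposite order.

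The promoter of Camkk1 had 1.39 RPKM of H4K5ac-ChIP in FC and 1.196 RPKM in CON, within counting error of Camk2a (ratio 1.04, 0.859 to 1.27, in FC and 1.14, 0.931 to 1.39, in CON), and had log2 ratios over IgG-IP of 1.75 (1.19 to 2.35) and 1.41 (0.91 to 1.96). It shares 2977 bp with the long noncoding RNA gene 4732414G09Rik and 1193 bp with P2rx1, an ATP-gated ion channel gene, so its reads cannot be given to Camkk1 alone. In the nearest 2 kb the Camkk1 ratios were 0.88 and 0.83, under 2-fold in each group. Camkk2 had 1.09 and 1.00 RPKM at its promoter, with log2 ratios of 1.67 (1.06 to 2.34) and 1.61 (1.02 to 2.25). Both promoters were above the mock library over the whole 5 kb in each group.

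Of the other CaMKII genes, Camk2g had 0.778 and 0.923 RPKM of H4K5ac-ChIP at its promoter in FC and CON, with log2 ratios over IgG-IP of 1.36 (0.70 to 2.09) and 1.86 (1.2 to 2.59). Camk2b had 0.886 and 0.840 RPKM, with ratios of 0.84 (0.30 to 1.41) and 1.07 (0.52 to 1.66), the latter 0.88 with a mapping score of at least 50. The promoter of Camk2d had only 71 and 98 H4K5ac-ChIP reads (0.449 and 0.545 RPKM) beside 39 IgG-IP reads in each group, and its log2 ratio, −0.25 (−0.84 to 0.35) in FC, was 0.20 (−0.34 to 0.78) in the CON libraries. H4K5ac-ChIP at the Camk2d promoter could not be told from the mock library at this depth. Over input the same promoter had 0.66 (0.15 to 1.17) in FC, beside 0.94 at Camk2a, 0.36 at Camk2b and 0.22 at Camk2g. In CON it had 0.29 (−0.15 to 0.74), the lowest of the subunit genes, beside 1.28, 1.36 and 0.96. Relative to the median of promoters of like GC content, it was higher by 0.58 in FC and 1.05 in CON over IgG-IP, and by 1.09 and 1.11 over input.

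Camk4 had 0.456 and 0.467 RPKM of H4K5ac-ChIP at its promoter, with log2 ratios over IgG-IP of 0.35 (−0.31 to 1.06) and 0.06 (−0.52 to 0.66), and the noncoding RNA gene 2310026I22Rik covers this promoter whole. Camk1d had 0.601 and 0.567 RPKM and ratios of 0.87 (0.21 to 1.58) and 0.85 (0.21 to 1.53). In all, 4 of 8 promoters reached 2-fold over IgG-IP in FC, beside 35.8% of all promoters tested, and 5 of 8 in CON, beside 29.2%. In the nearest 2 kb the counts were 5 and 4, beside 52.6% and 44.8% of all promoters of that length, as Camk2b (1.60, 0.63 to 2.73) in FC and Camk1d in FC (1.84, 0.77 to 3.11) and CON (1.15, 0.24 to 2.18) were past 2-fold, while Camkk1 in each group and Camk2a in CON were under it. In FC the highest of the 8 there was Camkk2 (3.07, 1.79 to 4.72), and Camk2g had 2.34 (0.88 to 4.28). Over input, 2 of 8 promoters reached 2-fold in FC (Camkk1, 1.08, and Camkk2, 1.06), beside 8.99% of promoters, and 4 in CON (those of Camkk1, Camkk2, Camk2b and Camk2a), beside 19.3%. The genes whose bodies were near the mock library, Camk2d and Camk4, were those whose 5 kb promoters were near it too. Within 1 kb of their main starts the ratios of both were higher, from few IgG-IP reads, as given below.

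**Figure D2:**
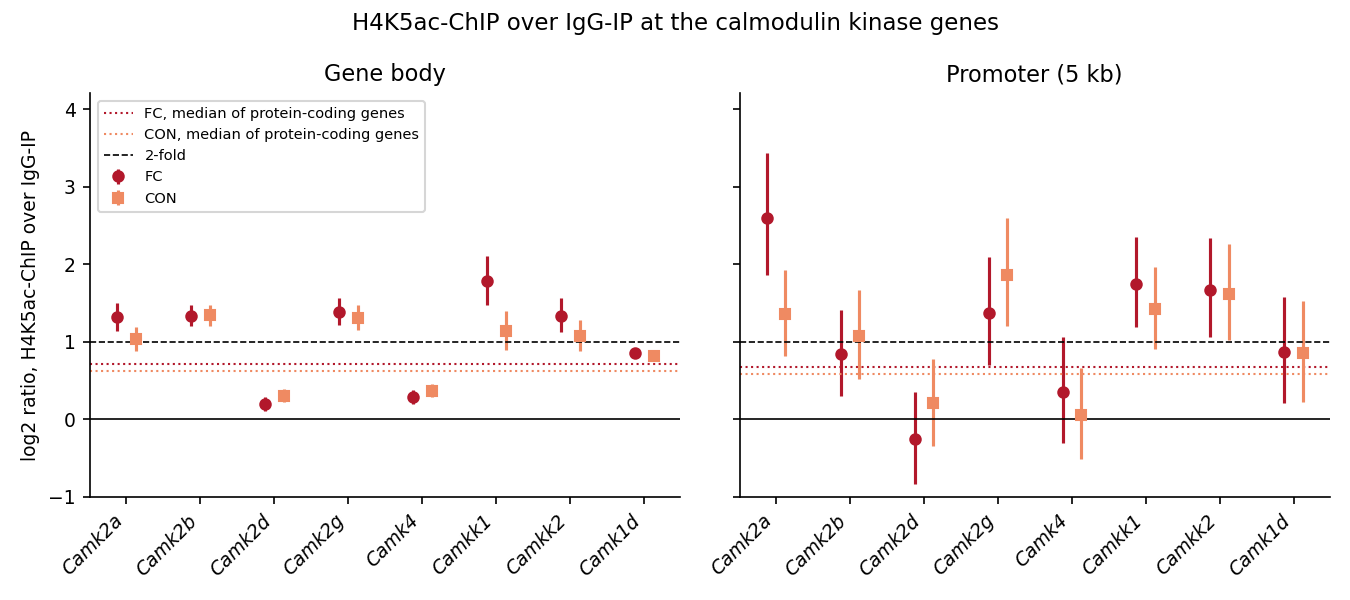
Enrichment of H4K5ac-ChIP over IgG-IP (vertical axis, log2 ratio) for each gene in FC (circles) and CON (squares), over the gene body (left) and the promoter (right), with exact binomial 95% intervals as bars, dotted lines at the median of protein-coding genes and a dashed line at 2-fold. The Camk2a promoter in FC, at 2.60, is the highest point, and Camk2d and Camk4 lie nearest to 0 in both panels.

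The annotated start sites of most members lie in sequence rich in CG dinucleotides, as in CpG islands. Within 500 bp of the main coding start, the start site with the most coding transcripts, the ratio of observed to expected CG was 0.297 at Camk2a and 0.698 (Camk4) to 0.987 (Camk2b) at the other 7 genes. A ratio of at least 0.6 was found at 46.1% of 22355 protein-coding genes. GC content in the same windows was 55.9% at Camk2a, 64.3% at Camk4 and 68.4% to 73.5% at the other genes, beside a median of 54.9% for all. The gene with the highest ratio of the 5 kb promoter over IgG-IP in FC, Camk2a, was therefore the one without a CG-rich start. This rank was not held in the nearest 2 kb, where Camkk2 (3.07) was above Camk2a (2.45). Over input in FC, the 5 kb promoters of Camkk1 (1.08) and Camkk2 (1.06) were above that of Camk2a (0.94). The 250 bases upstream of the main coding start are shown for a subunit gene with a deep gap in reads at the start (Camk2g), for the subunit gene with the lowest ratios over IgG-IP (Camk2d), for a kinase kinase with a dense promoter (Camkk1) and for the main start whose counting interval between the groups left out 0 (Camk1d). They were read from the NCBIM37 genome on the strand of the gene, 5′ to 3′, with each CG dinucleotide in capitals, at chr14:21613311-21613560 (− strand), chr3:126299619-126299868 (+), chr11:72832295-72832544 (+) and chr2:5635562-5635811 (−).
Camk2g: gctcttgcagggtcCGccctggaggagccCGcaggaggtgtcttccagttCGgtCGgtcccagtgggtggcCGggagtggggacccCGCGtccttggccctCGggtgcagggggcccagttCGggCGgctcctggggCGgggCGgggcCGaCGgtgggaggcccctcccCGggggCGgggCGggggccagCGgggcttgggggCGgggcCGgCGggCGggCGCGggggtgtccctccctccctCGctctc
Camk2d: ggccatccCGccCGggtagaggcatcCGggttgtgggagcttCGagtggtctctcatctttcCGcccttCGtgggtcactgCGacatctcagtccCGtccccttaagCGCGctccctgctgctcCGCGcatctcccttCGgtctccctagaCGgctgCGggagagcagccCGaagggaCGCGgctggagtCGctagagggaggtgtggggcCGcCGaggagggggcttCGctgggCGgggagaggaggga
Camkk1: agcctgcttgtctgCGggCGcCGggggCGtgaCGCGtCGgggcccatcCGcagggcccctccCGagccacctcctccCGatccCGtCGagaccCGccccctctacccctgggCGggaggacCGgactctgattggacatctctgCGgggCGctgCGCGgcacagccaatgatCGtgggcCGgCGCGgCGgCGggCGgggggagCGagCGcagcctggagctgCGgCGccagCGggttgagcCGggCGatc
Camk1d: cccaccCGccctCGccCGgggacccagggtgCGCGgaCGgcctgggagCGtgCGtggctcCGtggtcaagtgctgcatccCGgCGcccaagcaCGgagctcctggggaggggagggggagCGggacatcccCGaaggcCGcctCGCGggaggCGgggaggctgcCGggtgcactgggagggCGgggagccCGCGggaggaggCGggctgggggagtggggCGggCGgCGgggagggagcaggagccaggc
These stretches held 25 CG in Camk2g, 23 in Camk2d, 33 in Camkk1 and 26 in Camk1d, beside a median of 9 for all genes. Their GC content was 80%, 68.4%, 76% and 79.2%, beside a median of 54.4%. The Camk2d stretch lies inside the annotated gene, in an intron of a noncoding transcript that starts 649 bp before the main coding start. The last bases of the Camkk1 stretch belong to a noncoding transcript that starts 35 bp before the main coding start.

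A search of both strands of these 250 bases in all 8 genes found the full cAMP response element TGACGTCA, the site bound by CREB, in 0 of 8 members and in 1.94% of 22355 genes. Its core TGACG, which is part of that longer motif, was found in Camk2a (30 bp before the start) and Camkk1 (221 bp before it) and in 19.5% of genes. The GC box GGGCGG was found in 6 of 8 members, all but Camk2a and Camk4, and in 40.3% of genes, and CCAAT in Camkk1 and Camkk2 and in 35% of genes. In the Camk2g stretch printed above, the GC box occurred on both strands. A match describes the letters of this window only.

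Reads were few at the starts of several members. With the groups pooled, the density of H4K5ac-ChIP within 250 bp of the main coding start, relative to 500 to 1500 bp on either side, was 0.0721 at Camk2b (2 reads against 111), 0.114 at Camk2g (3 against 105), 0.123 at Camkk2 (5 against 162) and 0.206 at Camk1d (7 against 136). It was 0.496 at Camk2d, 0.627 at Camkk1, 0.696 at Camk2a and 0.986 at Camk4. All 8 ratios were below 1, as at 66.5% of 19302 genes, with a median of 0.769. The intervals at Camk2a (0.431 to 1.08) and Camk4 (0.543 to 1.69) included 1. Input showed the same gap, with 0 reads against 70 at Camk2b, 1 against 89 at Camkk2, 3 against 76 at Camk2g and 5 against 87 at Camk1d, and its ratio was 0.45 at both Camk2a and Camk2d and 0.48 at Camkk1. At Camk4 the input ratio was 1.04. The gap was therefore not limited to precipitated chromatin, and at Camk2b and Camkk2 it was at least as deep in input as in H4K5ac-ChIP.

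The highest 250-bp bin in the 5 kb upstream of the start was read at the genes where it stood farthest above the mean of the distal promoter, 3 to 5 kb upstream. It is a maximum of 20 bins, so that a value above this mean is a description. At Camk1d the highest 250-bp bin upstream lay 875 bp before the start in FC, with 3.16 RPKM (25 reads), and 1125 bp before it in CON, with 1.78 RPKM (16 reads). The density 3 to 5 kb upstream of Camk1d was 0.316 and 0.417 RPKM, so that these summits stood 10-fold and 4.27-fold above it. The input libraries at Camk1d had upstream maxima too, of 2.36 RPKM (27 reads) at 1625 bp before the start in FC, 6.97-fold above their own distal promoter, and of 1.01 RPKM (9 reads) in CON, 2.18-fold above it. At Camk2d, where the 5 kb promoter as a whole was at the level of the mock library, the summit was 1.90 RPKM in FC (875 bp before the main start) and 1.89 RPKM in CON (1125 bp before it), 5.71- and 3.68-fold above the distal promoter, from 15 and 17 reads. The input maxima at Camk2d were 2.58- and 1.73-fold above theirs, from 10 and 11 reads.

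Within 1 kb of the main start, Camkk2 had log2 ratios over IgG-IP of 2.76 (1.33 to 4.69) in FC and 2.40 (1.2 to 3.89) in CON, from 4 and 6 IgG-IP reads. Camk2g had 2.00 (0.29 to 4.36) and 3.68 (1.09 to 9.04), from 3 and 1 IgG-IP reads, and Camk1d had 2.49 (1.19 to 4.16) and 1.06 (0.00023 to 2.29). Camk2a had 2.20 (1.15 to 3.46) and 1.10 (0.28 to 2.01) there, and Camk2d 1.07 (0.01 to 2.29) and 1.37 (0.27 to 2.66). Between the groups, H4K5ac-ChIP within 1 kb of the Camk1d start had 61 reads in FC and 41 in CON, a log2 ratio of 0.76 (0.16 to 1.37), with 5 and 9 IgG-IP reads and 21 and 22 input reads. Of the main starts of the 8 genes this was the one whose interval left out 0, as did the intervals of 13.9% of 19397 protein-coding genes, so 1 of 8 is near the share of all genes. A second start of Camk1d, 38469 bp downstream, had 81 and 91 reads, a log2 ratio of 0.02 (−0.43 to 0.47).

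**Figure D3:**
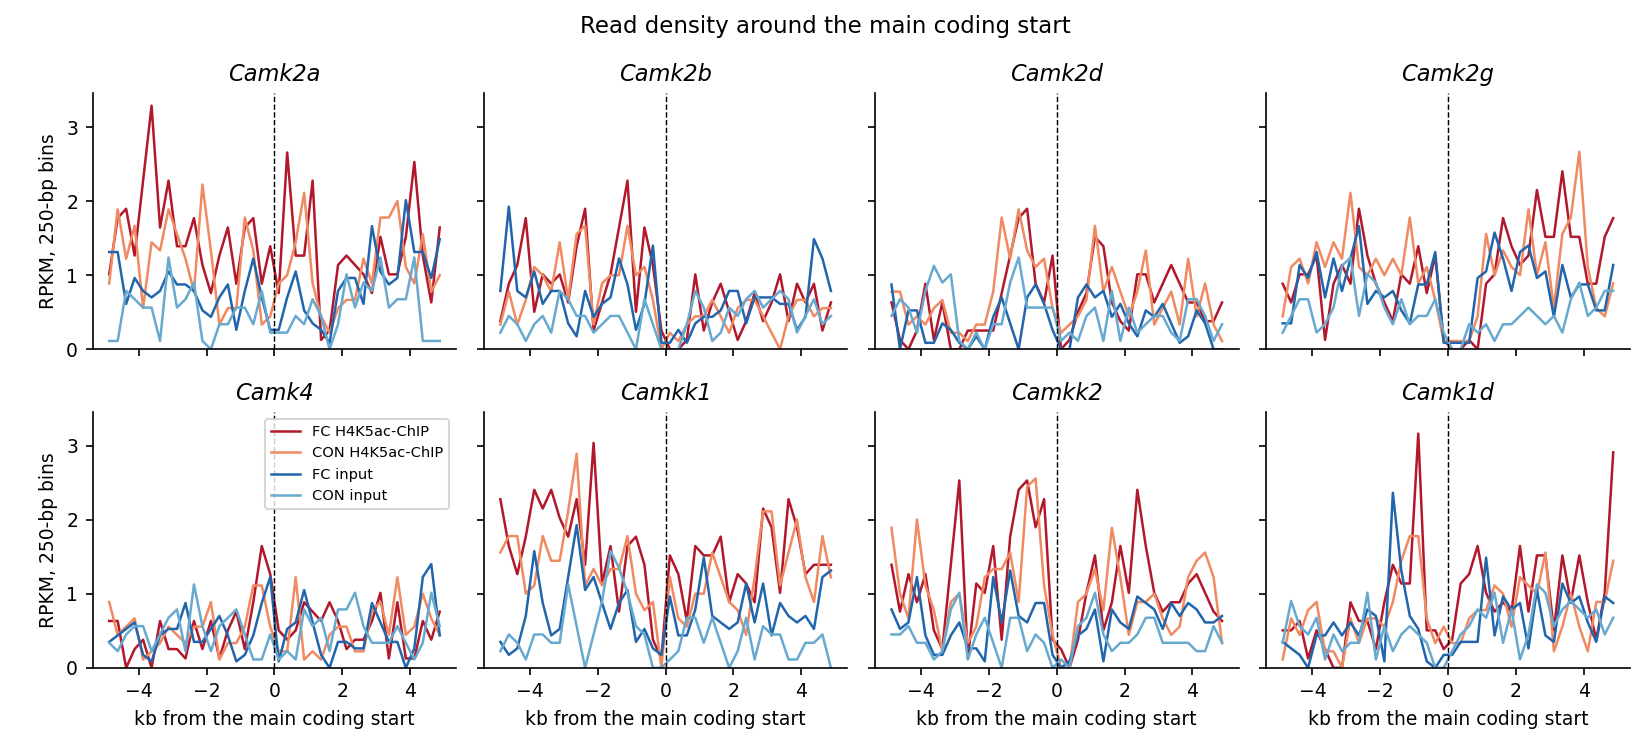
Read density (RPKM in 250-bp bins, vertical axis) against the distance from the main coding start in kb (horizontal axis, upstream to the left), 1 panel per gene, with lines for H4K5ac-ChIP and input in FC and CON. The dip at the start is seen in input as well as in H4K5ac-ChIP at Camk2b, Camk2g, Camkk2 and Camk1d, and the Camk1d summit in FC reaches 3.16 RPKM.

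Along the gene, the members followed different courses. Each body was cut into 5 stretches of equal length, numbered from the 5′ end. At Camk2b the log2 enrichment over IgG-IP was lowest in stretch 1, at 0.59 (0.29 to 0.90) in FC and 0.74 (0.42 to 1.06) in CON, and it was 1.52 (1.23 to 1.83) and 1.55 (1.26 to 1.85) in stretch 5. Its H4K5ac-ChIP density was 0.631 and 0.549 RPKM in stretch 1 and 1.09 and 1.01 RPKM in stretch 5, so the 3′ end of Camk2b was the more densely marked. GC content of these stretches was 51.3% and 55.8%.

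Camk2d went the other way. Its ratio was 0.49 in stretch 1 in each group (0.30 to 0.69 in FC, 0.31 to 0.67 in CON), 0.44 and 0.63 in stretch 2, 0.22 and 0.31 in stretch 3, −0.19 and 0.10 in stretch 4, and −0.04 in each group in stretch 5. The mark over Camk2d thus lay in its 5′ stretches, and from stretch 4 on no interval was above 0. GC content was 41.4% in stretch 1 and 39.7% in stretch 5. Camk4 had its highest ratios in stretch 5, with 0.54 (0.36 to 0.73) in FC and 0.53 (0.36 to 0.70) in CON, and in stretch 2 all 6 libraries were low, between 0.203 and 0.260 RPKM. Over input, stretch 5 was the highest in FC (0.67, 0.55 to 0.80) but not in CON (0.43, 0.30 to 0.56), where stretch 3 was (0.54, 0.39 to 0.69).

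Camk2g had its highest ratio in stretch 1, at 2.14 (1.69 to 2.62) in FC and 1.67 (1.30 to 2.05) in CON, from 44 and 69 IgG-IP reads. Over input the order turned in FC, where stretch 1 was the lowest of the 5 at 0.54 (0.34 to 0.74) and stretch 2 the highest at 0.82 (0.61 to 1.04), while in CON stretch 1 was the highest at 1.41 (1.16 to 1.67). Camkk2 had 1.79 and 1.27 in stretch 1, 0.74 and 0.83 in stretch 3 and 1.62 and 1.24 in stretch 5. Camk1d had a lowest and a highest value of 0.77 and 1.02 in FC. In CON it had 1.00 (0.86 to 1.14) in stretch 2 and 0.72 (0.59 to 0.85) in stretch 5, and over input in CON 0.96 (0.86 to 1.06) in stretch 1 and 0.70 (0.60 to 0.80) in stretch 5. At Camk2a the ratios were between 0.83 and 1.68 in FC and between 0.86 and 1.38 in CON. The widest gap between groups was in stretch 4 of Camkk1, with 2.30 (1.37 to 3.40) in FC and 0.52 (−0.05 to 1.12) in CON, where H4K5ac-ChIP had 107 and 106 reads and IgG-IP 10 and 34 reads.

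**Figure D4:**
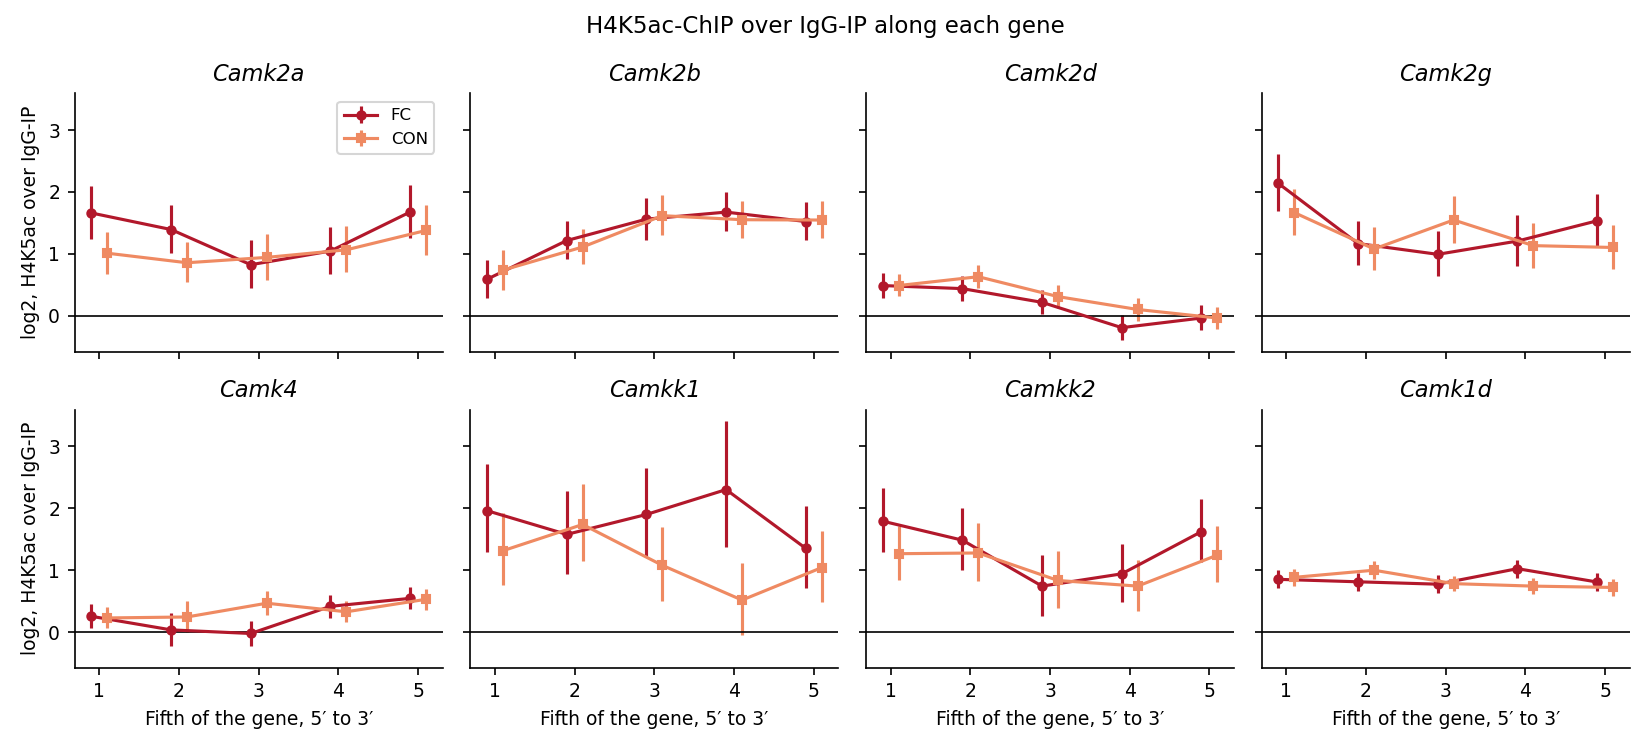
Enrichment of H4K5ac-ChIP over IgG-IP (vertical axis, log2 ratio) in 5 equal stretches of each gene from 5′ to 3′ (horizontal axis), for FC (circles) and CON (squares) with exact binomial 95% intervals as bars. Camk2b is lowest in its first stretch (0.59 and 0.74), Camk2d declines from 0.49 to −0.04, and Camk1d lies between 0.72 and 1.02.

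Exons and introns differed little in H4K5ac-ChIP density. Of the 8 genes, Camk2g in FC was higher over exons (log2 ratio of exons over introns 0.33, 0.10 to 0.55), as were Camk2b (0.19, 0.02 to 0.36) and Camk4 (0.22, 0.04 to 0.40) in CON. Camk2d (−0.26, −0.45 to −0.08) and Camkk2 (−0.36, −0.74 to −0.0046) in CON were lower over exons. The interval thus left out 0 at 1 of 8 genes in FC and 4 of 8 in CON, beside 30.8% and 29.3% of 18041 protein-coding genes. None of these was found in both groups. In input the interval left out 0 at Camk1d (0.22 in FC and 0.29 in CON) and at Camk4 in FC (0.27), where exons were denser. In IgG-IP it did so only at Camk2g in FC (−0.97, −1.86 to −0.21), from 14 exon reads, where exons were less dense.

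In windows of 1 kb with the groups pooled, H4K5ac-ChIP was called over IgG-IP where it was at least 2-fold, rested on at least 20 reads and had an interval above 1. This held for 419 of 1188 windows tested in the members, 35.3%, beside 17.4% of 2021734 windows of the genome, inside genes or not. By gene the share was 75.9% at Camkk1, 73.8% at Camk2g, 66.3% at Camk2b, 63.5% at Camkk2, 61.8% at Camk2a, 38.3% at Camk1d, 12.5% at Camk4 and 10.5% at Camk2d. The windows are pieces of the same bodies and promoters and hold the same reads. Their division of the members, with Camk1d between the groups of genes, therefore repeats that of the bodies.

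In each gene the window with the highest H4K5ac-ChIP over input was picked with the groups pooled, so its values are a description. At Camk2g it covered the last exon (chr14:21554001-21555000), with 58 and 62 H4K5ac-ChIP reads in FC and CON, 3 and 10 IgG-IP reads and 24 and 15 input reads, a log2 ratio of 1.89 over input and 2.08 over IgG-IP. At Camkk2 it lay in an intron (chr5:123220001-123221000), with 56 and 41 H4K5ac-ChIP reads and 1 and 4 IgG-IP reads, at 1.69 over input and 3.16 over IgG-IP. At Camk2a it lay 1229 bp from the first start (chr18:61086001-61087000), with 29 reads in each group and a log2 ratio of 1.54 over input. In the other 5 genes it lay in an intron, with log2 ratios over input of 1.57 (Camk2b) to 2.18 (Camk2d). The Camk2d window (chr3:126347001-126348000) rested on 20 and 14 H4K5ac-ChIP reads and 6 and 3 input reads.

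Between FC and CON, the bodies of the 8 genes differed little in H4K5ac-ChIP density relative to library size. Each density is scaled by the reads of its library, so a change of the mark shared by the whole genome would not show. By the study's Western blots, total H4K5ac was higher after the memory test than in controls. A gene was called different when its densities differed by at least 1.2-fold and the interval left out 1. This held for 0 of 8 bodies, beside 7.46% of 19455 bodies called higher in FC and 2.72% called lower. The log2 ratio of FC over CON was 0.14 (−0.01 to 0.29) at Camkk1, 0.12 (0.02 to 0.21) at Camk2a, 0.09 (0.02 to 0.17) at Camk2b, 0.09 (−0.03 to 0.21) at Camkk2, 0.02 (−0.07 to 0.11) at Camk2g, −0.05 (−0.09 to −0.02) at Camk1d, −0.13 (−0.19 to −0.06) at Camk4 and −0.14 (−0.20 to −0.07) at Camk2d. With the reads of all 8 pooled it was −0.03 (−0.06 to −0.01), and Camk1d alone gave more of these reads than any other gene. The median over all bodies tested was 0.04.

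The order of these small differences followed base composition. Over the 8 bodies Spearman's rho between GC content and the log2 ratio of FC over CON was 0.976 for H4K5ac-ChIP, 1.00 for input and −0.452 for IgG-IP. Over all protein-coding bodies the same rho was 0.378, 0.824 and −0.142. The points share their libraries and are not independent. In input, 6 of 8 bodies were called higher in FC, beside 46.3% of all bodies called higher and 10.6% called lower, with log2 ratios from 0.30 (Camk1d) to 0.86 (Camkk1), while Camk2d and Camk4 were at −0.13 and −0.12. Less the median of bodies of like GC content, the H4K5ac-ChIP difference was between −0.08 (Camk1d and Camk2d) and 0.02 (Camkk1). Less the input ratio, 6 of 8 bodies were called, all of them lower in FC, beside 45.5% of 19378 bodies called in either direction and 7.86% called higher, with values of −0.36 (Camk1d) to −0.72 (Camkk1), and Camk2d (−0.01) and Camk4 (−0.0021) were not. Less the IgG-IP ratio, Camk2a (0.28) and Camkk1 (0.64) were called higher, beside 11.6% of 18385 bodies called higher and 14.6% called in either direction, so the direction between groups turned with the control library. The part of GC content in the differences between groups was not tested.

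**Figure D5:**
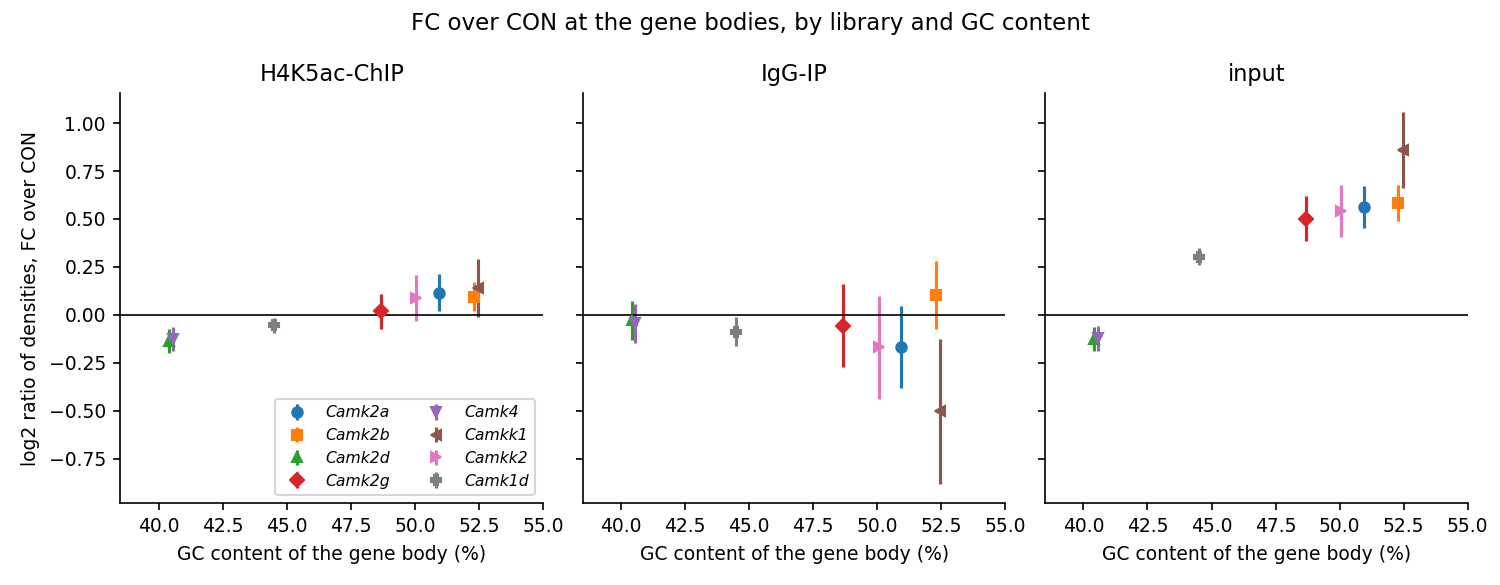
The log2 ratio of FC over CON over the gene body (vertical axis) against its GC content in percent (horizontal axis) for H4K5ac-ChIP, IgG-IP and input, with 1 marker per gene and exact binomial 95% intervals as bars. In input the ratio runs from −0.13 at Camk2d to 0.86 at Camkk1, and in H4K5ac-ChIP from −0.14 to 0.14 in nearly the same order of genes.

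At the promoters, 1 of 8 members was called between the groups, beside 8.34% of 21107 promoters called higher in FC and 3.58% called lower. This was Camk2a, with a log2 ratio of FC over CON of 0.34 (0.05 to 0.63) in H4K5ac-ChIP, from 210 and 189 reads. At the same promoter IgG-IP was −0.91 (−1.86 to −0.01), from 16 and 34 reads, and input was 0.67 (0.27 to 1.09), from 158 and 77 reads. The input libraries thus differed there in the direction of H4K5ac-ChIP and by more, and the IgG-IP libraries in the other direction. Less the median of promoters of like GC content, the H4K5ac-ChIP ratio was 0.20 (−0.09 to 0.49) and less the median of all promoters it was 0.28 (−0.0072 to 0.57), so that the call was lost under either. It was −0.33 (−0.82 to 0.15) less the input ratio and 1.25 (0.34 to 2.15) less the IgG-IP ratio. The call held in the nearest 2 kb (0.61, 0.07 to 1.15) and with a mapping score of at least 50 (0.46, 0.13 to 0.78). Less the input ratio, 2 of 8 promoters were called, both lower in FC, Camk2b (−1.0, −1.55 to −0.46) and Camk2g (−0.75, −1.26 to −0.24), beside 24.7% of promoters called in either direction and 5.97% called higher. The other promoters had log2 ratios of −0.28 (Camk2d, −0.74 to 0.18) to 0.21 (Camkk1, −0.07 to 0.49), and all of their intervals included 0.

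In windows of 1 kb, tested for H4K5ac-ChIP at 2-fold between the groups, 14 of 1158 were called higher in FC and 42 lower. These are 1.21% and 3.63% of the windows of the members, beside 2.84% and 3.31% of 1398929 windows of the genome. The long genes Camk2d (15), Camk4 (15) and Camk1d (10) held 40 of the 42 lower windows. Windows called lower made up 6.55% of those tested in Camk2d, 6.94% in Camk4 and 2.49% in Camk1d, and windows called higher 1.31%, 0.463% and 1.496%. With at least 40 reads, 11 of 810 windows of the members were called higher and 20 lower, beside 14642 and 15666 of 650625 windows of the genome. In windows of 2 kb the counts were 2 and 13 of 610, beside 16896 and 23289 of 983878.

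The windows with the largest folds were small in reads. A window entered with at least 20 reads of both libraries together, so those near this limit entered through the library where they were higher. Higher in FC was an intronic window of Camk1d (chr2:5238001-5239000), with 33 reads in FC and 12 in CON, 3.13-fold, and so were intronic windows of Camk2d at chr3:126352001-126353000 (26 and 11 reads, 2.69-fold) and chr3:126402001-126403000 (27 and 12 reads, 2.56-fold). Lowest in FC was an intronic window of Camk4 (chr18:33272001-33273000), with 2 reads in FC and 19 in CON, a ratio of 0.12, where IgG-IP had 3 and 15 reads and input 13 and 8. It was followed by a window in an exon of Camk2d (chr3:126541001-126542000; 5 and 23 reads, ratio 0.247) and an intronic window of Camk4 (chr18:33166001-33167000; 4 and 18 reads, ratio 0.253), where input had 8 and 27 reads. In the first of the Camk4 windows the mock library was lower in FC as well, and in the last the input library was.

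Of 20 other genes of the calmodulin kinase pathway, listed by their known roles, all were found. The log2 ratio over IgG-IP reached 2-fold over 12 bodies in FC and 9 in CON, beside 33.5% and 25.1% of all bodies, with medians of 1.32 and 0.96. It did so over 12 and 10 promoters, beside 35.8% and 29.2% of all promoters. The highest bodies in FC were Camk1 (2.33), the gene of CaMKIα, and Pnck (2.30), that of CaMKIβ, and the lowest were Calm2 (0.30), a calmodulin gene, and Gap43 (0.41), which encodes a calmodulin-binding protein of the growth cone. All 5 of the other kinases and the pseudokinase were at 2-fold or above over the body in each group, with the lowest at 1.31 and the highest at 2.33 in FC, and at 1.04 and 2.25 in CON. The calmodulin genes Calm2 and Calm3 had 0.30 and 1.43 in FC and 0.31 and 0.88 in CON over the body, and 1.97 and 1.76 in FC and 1.08 and 0.93 in CON over the promoter. In FC the Camk4 (0.29) and Camk2d ratios lay below all 20, though within counting error of Calm2 (−0.11 to 0.72), while in CON Camk2n2 (0.03, −1.17 to 1.35) was below both.

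Between FC and CON, 4 of the 20 bodies were called higher in FC and 0 lower, beside 7.46% and 2.72% of all bodies. These were the CaMKII inhibitor gene Camk2n2 (1.03, 0.21 to 1.90), Pnck (0.55, 0.13 to 0.98), the calmodulin gene Calm3 (0.51, 0.25 to 0.76) and Nrgn (0.37, 0.07 to 0.67), which encodes the calmodulin buffer neurogranin. At the promoters, the pseudokinase gene Camkv (0.51), the CaMKII inhibitor gene Camk2n1 (0.45), the phosphatase gene Ppm1f (0.53) and the CREB coactivator gene Crtc1 (0.49) were called higher, and 0 were called lower, beside 8.34% and 3.58% of all promoters. No gene of this list was called over both its body and its promoter. Unlike at the members, these ratios were not taken less the input ratio, the IgG-IP ratio or the median at like GC content.

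The 3 protein-coding genes closest to Camk2a over its 8 log2 ratios (body and promoter, over IgG-IP and input, in FC and CON), by Euclidean distance among 18908 genes, were Optc (0.376), Adck4 (0.387) and Plcd3 (0.400). The closest of the other members was Camkk2 (0.985), followed by Camkk1 (1.13), Camk2g (1.64), Camk2b (1.93), Camk1d (2.04), Camk4 (3.15) and Camk2d (3.55). By this measure the CaMKII subunit gene Camk2d was the farthest of the 7 from Camk2a. The promoter ratio over IgG-IP in FC weighs heavily here. It was 2.60 at Camk2a, from 16 IgG-IP reads, beside 1.67 at Camkk2, 0.35 at Camk4 and −0.25 at Camk2d. Counting error was not carried into the distances, so small differences between them give no firm order.

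Marker genes were read as a check of the tissue. Of 28 markers all were found, and 6 bodies in FC and 6 in CON were at 2-fold over IgG-IP or above, beside 33.5% and 25.1% of all bodies, as were 12 and 7 promoters, beside 35.8% and 29.2%. The median log2 ratio of the body in FC and CON was 0.68 and 0.86 for 5 pan-neuronal genes, 0.98 and 0.73 for 4 genes of hippocampal excitatory neurons, 0.82 and 0.32 for 3 of interneurons, 0.83 and 0.76 for 4 of astrocytes, 1.33 and 0.95 for 4 of oligodendrocytes and 0.88 and 0.63 for 3 of microglia. It was 0.21 and −0.14 for 5 genes of tissues other than brain, although Apoa1 of liver had 0.99 and 1.13 and Myh6 of heart 0.98 and 0.58. Among the markers of brain cells, Neurod6 had −0.81 and −0.71 with intervals that included 0, Snap25 had 0.33 and 0.27, and Gad2 had 0.12 and −0.37. The median of all bodies tested was 0.71 in FC, above that of the pan-neuronal genes, and 0.61 in CON. Single genes thus did not all follow their lists, and the medians are a rough check only. Between the groups, 6 marker bodies were called higher in FC and 0 lower, beside 7.46% and 2.72% of all bodies, and 3 promoters were called higher, beside 8.34% of all promoters. The bodies were all 3 interneuron genes, Gad1 (0.31), Gad2 (0.39) and Slc32a1 (1.03), and genes of other cell types. These were Prox1 of excitatory neurons (0.35), Mag of oligodendrocytes (0.47) and Csf1r of microglia (0.27). The marker ratios between groups were not set against input, IgG-IP or GC content. Whether a difference in cell makeup has a part in the values of the CaM kinase genes was not tested.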

How the data were processed

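Color-space reads of 50 bp were mapped to mm9 by the authors with Bioscope, and 1 BED record was deposited for each aligned read, without normalization. The score that the authors' alignment gave each deposited read is its mapping quality, from 4 to 100, and was used only in an alternative. Aligned spans were 25 to 50 bp, and no read ran past a chromosome end of the NCBIM37 genome.

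Reads that overlapped an interval by at least 1 bp were counted, and repeats were kept. Ratios were scaled by the reads of each library, and genes entered with at least 20 reads in both libraries together. Windows were of 1 kb. Sequence and annotation came from the NCBIM37 genome and its GENCODE annotation. Python 3.11.15, NumPy 2.4.6, SciPy 1.17.1 and matplotlib 3.10.9 were used, and the counting and calls were tested on simulated data. Precision was set by depth, with 14549689 to 45673239 reads per library, and the smallest library was IgG-IP in FC.

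Samples were grouped by their labels. With 1 library per group and antibody no test across samples was made. The members and the lists of pathway genes and markers were chosen with earlier results of these data known. Genes named from the pathway list were the 2 highest and the 2 lowest in gene-body enrichment over IgG-IP in FC and any called between groups, and 2 genes of that list are not reported here. The 3 genes nearest to Camk2a by Euclidean distance were named, as were the window with the highest ratio over input in each gene and the 3 windows with the largest fold in each direction. Members are all named, and Gad1, Gad2, Slc32a1, Prox1, Mag, Csf1r, Neurod6, Snap25, Myh6 and Apoa1 were named after their values were seen. Map2 was found under the older symbol Mtap2, and for Eef2k and Zbtb20 the longest of 2 entries was used.

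Alternatives tried were 1 read per position and strand, a mapping score of at least 50, the midpoint of the read, input as control, bodies without their first 2 kb or without parts shared with another gene, promoters of 2 kb, ratios less the median of all genes, of genes of like GC content, of IgG-IP or of input, windows of 2 kb and at least 40 reads per window. The promoter upstream of the main coding start was an alternative chosen after seeing the data.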

Additional observations from a re-analysis of the deposited data

Results flagged for a closer look

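The promoter of Camk2d had opposite signs in the groups, with a log2 ratio of H4K5ac-ChIP to IgG-IP of −0.25 in FC (71 and 39 reads) and 0.20 in CON (98 and 39 reads). Both intervals included 0, and the difference between the groups was not tested. The signs were alike in the nearest 2 kb (0.23 and 0.51) and upstream of the main coding start (0.25 and 0.35), and opposite with 1 read per position and strand (−0.10 and 0.25), a mapping score of at least 50 (−0.27 and 0.31) and the midpoint of the read (−0.28 and 0.19).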

How the results depend on the processing

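With input in place of IgG-IP, 0 of 8 bodies in FC and 3 in CON were at 2-fold or above, beside 4.09% and 14.5% of all bodies. So were 2 promoters in FC, beside 8.99% of all promoters. With 1 read per position and strand, 3 bodies in CON were, as Camk2a (0.99) and Camkk2 (0.96) were just under 2-fold, beside 21.8% of all bodies. Between FC and CON, 2 bodies were called higher in H4K5ac-ChIP less the IgG-IP ratio (Camk2a, 0.28, and Camkk1, 0.64), beside 11.6% of all bodies. Less the input ratio, 6 bodies were called lower, beside 45.5% of all bodies called in either direction and 7.86% called higher. With all 8 bodies pooled, the log2 ratio of −0.035 was −0.074 less the median of protein-coding genes, −0.060 less the median at like GC content, 0.030 less the IgG-IP ratio and −0.26 less the input ratio. The promoter of Camk2a lost its call less either median. Less the input ratio, 2 promoters were called lower (Camk2b, −1.0, and Camk2g, −0.75), beside 24.7% of all promoters called in either direction and 5.97% called higher. The Camk2a promoter was −0.33 less the input ratio. Of the 1 kb windows in the members, 4.84% were called in either direction, 3.33% with 1 read per position and strand and 2.46% in windows of 2 kb, beside 6.14%, 3.39% and 4.08% of all windows. The causes of these shifts were not tested. Of the values of single members, 77 of 96 body ratios over IgG-IP and 84 of 96 promoter ratios either kept their call, whatever their size, or were uncalled and stayed within the interval of the value reported, as did 55 of 72 body and 63 of 72 promoter ratios between groups. The counts include settings that could barely move a value, such as leaving out shared parts where no other gene overlaps.

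Each ratio rests on 1 library on each side, so differences between animals are unknown. Ratios of the 5 kb promoters over IgG-IP rest on 16 to 39 mock reads in a group, and those of 2 kb on fewer. Within 1 kb of the main starts they rest on 1 (Camk2g in CON) to 15 (Camk2a in CON). No paired analysis was possible because the labels give no replicates within a group.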
